A study of Homo sapiens with 8 samples.

Results

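The response to branched-chain amino acids (BCAA) was compared between 2 established human clear cell renal carcinoma lines, 769-P and CAKI-1, gene by gene. For each gene, the effect of BCAA in a line was the mean log2 value of the libraries with BCAA minus that of the libraries without, and the difference was the effect in 769-P minus the effect in CAKI-1. A positive difference thus means that the gene went further up, or less far down, in 769-P. Of 27776 Ensembl identifiers listed for either line, 21845 were listed for both, and 19406 had a mean value of 1 or more in each line and were compared. The 10881 genes with a mean of 100 or more in both lines, where the values are most precise, are described first. RNA was sequenced after 16 h in medium with isoleucine at 0.38 mM, leucine at 0.38 mM and valine at 0.17 mM, or in medium without these 3 amino acids, with 2 libraries for each line and condition and 8 in all. The labels give no transgene or drug for either line, and per the study's methods the medium without BCAA was made from an amino acid-free powder with dialyzed serum. The lines were grown in different maintenance media, RPMI for 769-P and MEM for CAKI-1. Line, maintenance medium and deposited table go together, so their parts in a difference cannot be told apart.

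Leucine, isoleucine and valine cannot be made by human cells. They enter mainly through exchangers of the SLC7A5 and SLC3A2 type, are charged onto transfer RNA, or are broken down in mitochondria after a transaminase and the branched-chain keto acid dehydrogenase complex have acted on them. A cell short of an amino acid accumulates uncharged transfer RNA, which activates the kinase GCN2 and raises translation of the transcription factor ATF4, a regulator of genes for amino acid uptake, synthesis and transfer RNA charging. Leucine is also sensed through the Sestrin and Rag GTPase branch that places mTORC1 on the lysosome, from where it promotes growth, lipid synthesis and ribosome production.

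Between 30979773 and 64256834 reads per library lay on listed genes. In 769-P, both libraries with BCAA were deeper than both without, at 55829324 and 64256834 against 39062721 and 40130258 reads. A deposited value is a normalised read count, that is, reads divided by 1 size factor per library, set separately for each line and not divided by gene length, so levels were compared only within a line and for the same gene. PAX8, a transcription factor of the renal lineage, had values from 14547 to 23271 in 769-P and from 8700 to 10739 in CAKI-1, and 11 of 16 renal markers in 769-P and 9 of 16 in CAKI-1 had a mean of 100 or more. The summed level of the renal list was 162605 to 169022 in 769-P. In CAKI-1 it was 94318 to 99143 with BCAA and 133743 to 137853 without, a gap that lay in VIM, the intermediate filament vimentin, with 64620 and 65548 against 100173 and 104102. Without VIM, the CAKI-1 sums were 29698 to 33595 with BCAA and 33570 to 33750 without, and those of 769-P 80322 to 81457 and 73840 to 74441. Endothelial markers summed to at most 14.4 in any library, and of 8 leukocyte markers ITGAM alone had a mean of 100 or more, in 769-P. Of 7 fibroblast and pericyte markers, 2 in 769-P and 4 in CAKI-1 had a mean of 100 or more. They summed to 4442 to 4949 with BCAA and 3987 to 4153 without in 769-P, and to 4548 to 4768 and 4240 to 4338 in CAKI-1, and their part in the results was not tested. The labels do not say that replicates are separate cultures, so the p-values measure the spread between these libraries, which may be technical. In RNA from a whole culture, a change in how many cells express a gene and a change in RNA per cell cannot be told apart.

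Genes called in both lines mostly moved in the same direction, and the median size of the effect was larger in 769-P. Of the 10881 genes, 3759 were higher with BCAA in 769-P (34.5%) and 3175 were lower (29.2%), where limma called a gene at an adjusted p under 0.05 with no minimum fold. In CAKI-1, 2076 were higher (19.1%) and 1693 were lower (15.6%). The median size of the log2 effect was 0.292 in 769-P and 0.187 in CAKI-1. The Pearson correlation of the effects across these genes, which are not independent replicates, was 0.59. Across all 19406 genes tested in both lines it was 0.28. Over every gene tested in a line, the shares called higher and lower were 20.3% and 18.2% in 769-P and 10.8% and 9.05% in CAKI-1. The difference itself was tested by limma as an interaction, with all 8 libraries in the model, and was called for 1897 of the 10881 genes as further up in 769-P (17.4%) and for 1727 as further down (15.9%). Over all 19406 genes it was called for 2122 (10.9%) and 1966 (10.1%). Of 2901 genes called in both lines, 2661 moved the same way and 240 the opposite way.

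**Figure D1:**
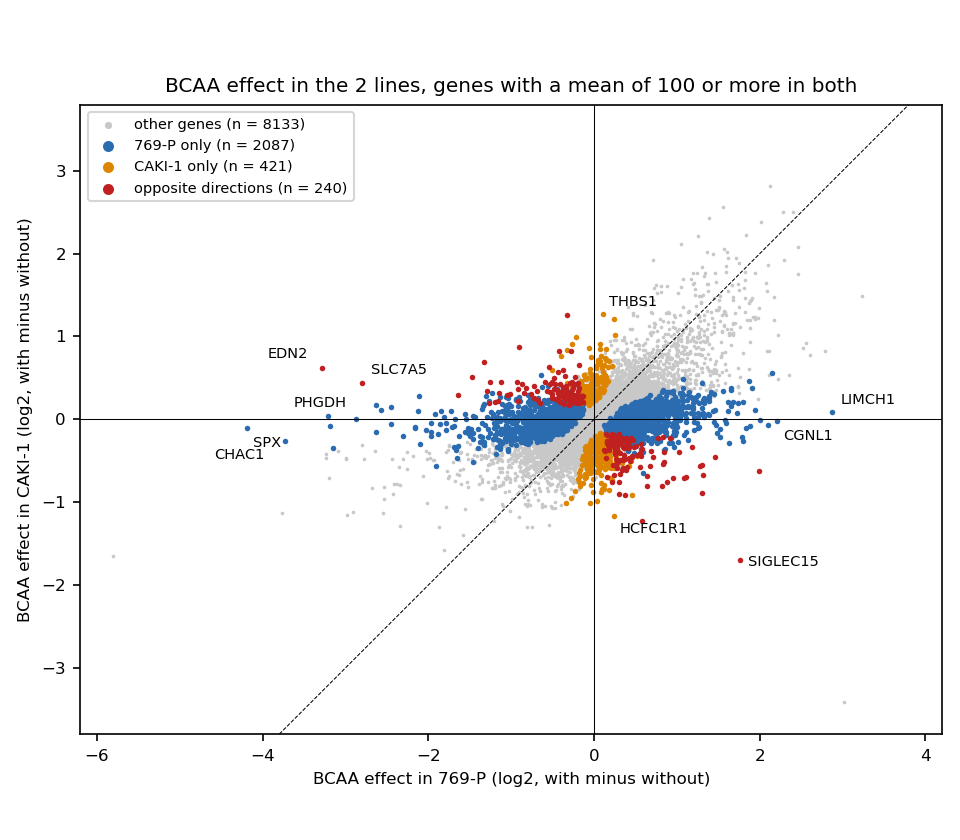
Effect of BCAA (log2, with minus without) in 769-P on the horizontal axis and in CAKI-1 on the vertical axis, 1 point per gene, for the 10881 genes with a mean of 100 or more in both lines; the dashed line marks equal effects. Genes called in 769-P only lie along the horizontal axis (blue, n = 2087), those called in CAKI-1 only along the vertical axis (orange, n = 421), and those called in opposite directions in the upper left and lower right (red, n = 240).

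The response patterns below each rest on a called difference. In opposite directions, 121 genes rose in 769-P and fell in CAKI-1 (1.11%), and 119 did the reverse (1.09%). In 1 line only, 1072 genes rose in 769-P without a call in CAKI-1 (9.85%), and 1015 fell (9.33%). Conversely, 184 genes rose in CAKI-1 without a call in 769-P (1.69%), and 237 fell (2.18%). A missing call alone was a weak criterion, since 1946 of the 4033 genes called in 769-P and not in CAKI-1 had no called difference, and likewise 447 of 868 the other way round. For 965 of the 1072 genes that rose in 769-P only, and for 930 of the 1015 that fell, the 95% interval of the CAKI-1 effect lay within 0.5 log2 units of 0. In the same direction, 380 genes rose further in 769-P and 94 further in CAKI-1, while 262 fell further in 769-P and 36 in CAKI-1. Beside these patterns, 1109 genes rose and 780 fell in both lines with no called difference. The opposite pattern was mostly small, with median effects of 0.33 in 769-P and -0.36 in CAKI-1 for the first set and of -0.35 and 0.3 for the second.

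These class counts depended on how the spread was estimated within a line. With fits within a line and any CAKI-1 library left out, limma called 0 genes in CAKI-1 at an adjusted p under 0.05, against 3147 to 4596 at an unadjusted p under 0.05, and thus 0 in the opposite and CAKI-1 only patterns. Likewise, limma without its intensity trend called 0 genes in CAKI-1, against 2961 at an unadjusted p under 0.05. With a 769-P library left out, fits within a line gave 21 to 37 and 22 to 53 opposite genes. When the spread came from all 7 remaining libraries, the opposite counts were 81 to 193 and 91 to 158 and the 769-P only counts 704 to 1016 and 626 to 1018. The 193 came without CAKI-1 with BCAA replicate 2, the 704 without 769-P without BCAA replicate 1 and the 626 without 769-P with BCAA replicate 2. On recovered reads, edgeR called 172 and 116 opposite genes and DESeq2 103 and 116, and 97 of the 121 and 103 of the 119 had the same pattern with both tools. With reads thinned to the smallest library, the opposite counts were 48 and 54.

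SIGLEC15, a sialic acid-binding receptor of myeloid cells that some tumours express, showed the largest opposite response, rising in 769-P and falling in CAKI-1. The gene lies on chr18:45825512-45844080 on the plus strand of GRCh38. In 769-P, its normalised read counts were 2106 and 1860 with BCAA and 547 and 621 without. In CAKI-1 they were 235 and 372 with BCAA and 937 and 990 without. The libraries did not overlap in either line, which the rule for naming genes required and which held for all 121 and 119 opposite genes. The log2 effects were 1.76 (SE 0.09) and -1.7 (SE 0.17), a difference of 3.46 (SE 0.22, limma adjusted p = 2.5e-07). WDR72, which encodes a WD-repeat protein needed for enamel formation and renal acid handling, had 2102 and 2369 with BCAA and 857 and 955 without in 769-P. In CAKI-1 it had 139 and 82.4 with BCAA and 200 and 199 without, and the difference was 2.19 (SE 0.26). FLRT3, a cell adhesion protein, COL6A3, a chain of collagen VI, CHST2, a sulfotransferase acting on glycans, and ETV1, an ETS-family transcription factor, followed the same pattern, with differences of 1.62, 1.63, 1.8 and 1.65. Their effects were 0.82 to 1.09 in 769-P and -0.81 to -0.7 in CAKI-1. In each line the libraries with BCAA stood clear of those without, as the naming rule required. COL6A3, for example, had 1911 and 1544 against 912 and 960 in 769-P, and 11404 and 9977 against 16435 and 19777 in CAKI-1.

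In the reverse pattern, EDN2 changed most. It encodes endothelin 2, a vasoactive peptide, and lies on chr1:41478775-41484673 on the minus strand. Its counts in 769-P were 198 and 168 with BCAA and 1759 and 1826 without. In CAKI-1 they were 579 and 594 with BCAA and 406 and 359 without. The effects were -3.29 (SE 0.1) and 0.62 (SE 0.11), a difference of -3.91 (SE 0.15, limma adjusted p = 2.6e-09). ITPR1, a calcium release channel of the endoplasmic reticulum, had 404 and 370 with BCAA against 1000 and 948 without in 769-P. In CAKI-1 it had 872 and 798 against 489 and 543, so its order was inverted between the lines. TNFRSF9, the costimulatory receptor 4-1BB, moved by nearly the same amount each way, with effects of -0.91 (SE 0.13) and 0.88 (SE 0.12). NHSL1, a regulator of cell migration, had a difference of -1.99, and CCN2, a secreted matricellular protein induced by YAP and TEAD, one of -0.98. RELL1, a relative of the TNF receptor family, had a difference of -1.17, with 21.5% of its exon length overlapping another gene, C4orf19. When each of the 8 libraries was left out in turn and the spread was taken from the other 7, SIGLEC15, WDR72, CHST2, COL6A3, ETV1, EDN2, ITPR1, NHSL1 and TNFRSF9 had their pattern in all 8 cases, and FLRT3, RELL1 and CCN2 in 7.

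**Figure D2:**
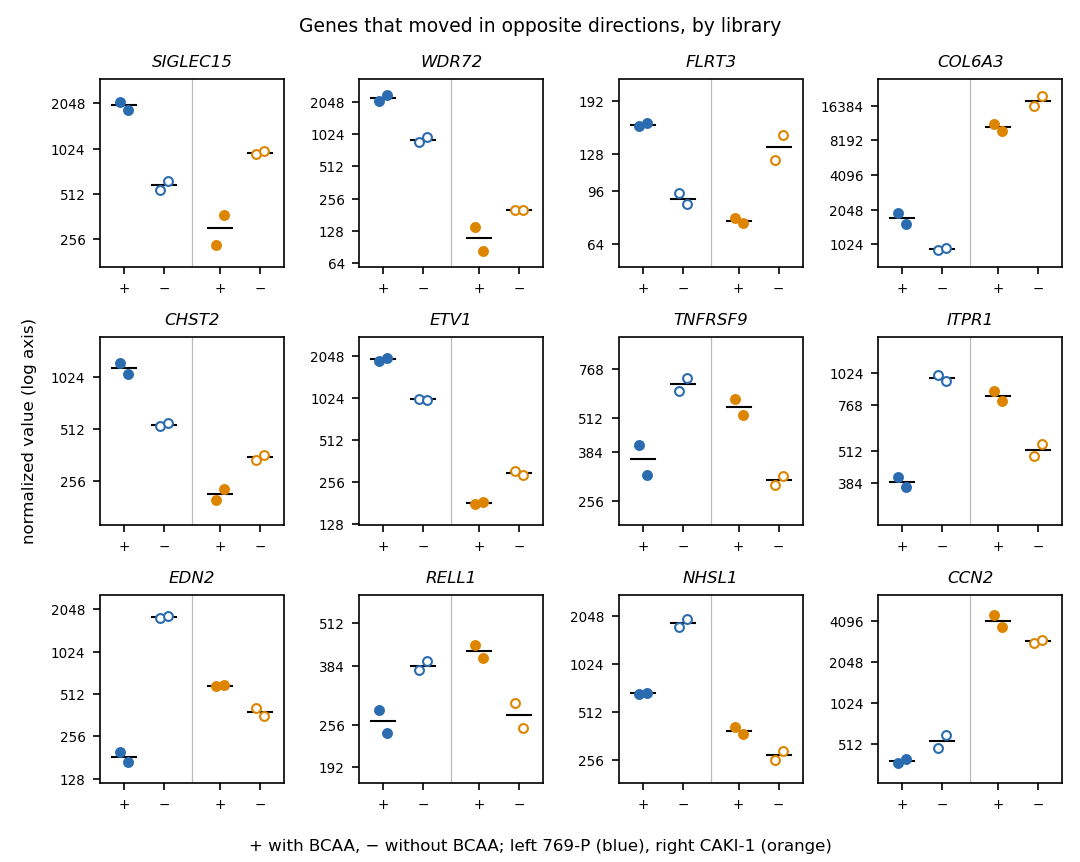
Normalised read counts (log axis) of 12 genes that moved in opposite directions, 1 panel per gene and 1 point per library, with the group mean as a bar, for 769-P and CAKI-1 with and without BCAA; levels are comparable within a line. In each panel the libraries with BCAA lie on opposite sides of those without in the 2 lines, as the naming rule required. The margin is widest for SIGLEC15 and, in 769-P, for EDN2.

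Among genes called in 769-P only, CHAC1 and SPX had the largest falls. CHAC1, a glutathione-degrading enzyme induced by ATF4, had 158 and 156 with BCAA and 2103 and 2122 without in 769-P. In CAKI-1 it had 822 and 1003 with BCAA and 951 and 1237 without, where the groups overlapped. Its effects were -3.74 (SE 0.09) and -0.26 (95% interval -0.54 to 0.02), a difference of -3.48 (SE 0.17, limma adjusted p = 2.1e-08). SPX, the peptide hormone spexin, had 16.7 and 29.1 with BCAA and 438 and 404 without in 769-P, and between 572 and 660 in every CAKI-1 library, a difference of -4.09 (SE 0.29). SLC1A4, a neutral amino acid transporter, KIF21B, a neuronal kinesin, PHGDH, which opens serine synthesis, and AMZ1, a metalloprotease, fell in 769-P, with log2 effects of -3.21, -3.18, -2.87 and -2.63. Their CAKI-1 effects lay between -0.08 and 0.17 and were not called.

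The genes that rose in 769-P only were led by LIMCH1, an actomyosin regulator, with 457 and 527 with BCAA against 48.4 and 90.5 without. In CAKI-1 its 4 libraries lay between 380 and 408. The difference was 2.78 (SE 0.31). CGNL1, a tight junction protein, had 3069 and 2882 against 637 and 652 in 769-P and overlapped between conditions in CAKI-1, at 2228 to 2631, with a difference of 2.22 (SE 0.11). IL31RA, a cytokine receptor, KRT15, a keratin, ZNF385D, a zinc finger protein, and TFPI2, a protease inhibitor of the matrix, rose by 2.09, 1.79, 2.0 and 1.78 on the log2 scale. Their CAKI-1 effects lay between -0.26 and -0.01 and were not called. The median effect was 0.52 over the 1072 genes that rose and -0.54 over the 1015 that fell.

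Responses called in CAKI-1 only were fewer and smaller, with median effects of 0.35 for genes that rose and -0.38 for those that fell. THBS1, the matrix glycoprotein thrombospondin 1, rose most, with 70515 and 45031 with BCAA and 22628 and 24042 without. In 769-P its 4 libraries lay between 18966 and 21534. The effect was 1.27 (SE 0.15) in CAKI-1 and 0.1 (SE 0.04, limma adjusted p = 0.098) in 769-P. PSMC3IP, a recombination factor, SDC2, the heparan sulfate proteoglycan syndecan 2, LYAR, a nucleolar protein, AL390728.6, a noncoding transcript, POMK, a kinase acting on dystroglycan, and TNFAIP6, a hyaluronan-binding protein, also rose, by 0.76 to 1.21 on the log2 scale. PSMC3IP shared 29.9% of its exon length with MLX. The differences were -0.97, -0.93, -0.77, -1.16, -1.18 and -1.16.

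HCFC1R1, a regulator of the host cell factor HCFC1, fell most in CAKI-1, with 340 and 380 with BCAA and 913 and 718 without. In 769-P it had 1319 and 1602 against 1240 and 1230, an effect of 0.24 with an adjusted p of 0.052 (limma), just outside the threshold. The difference was 1.41 (SE 0.17), and 18.1% of its exon length overlapped THOC6. BHLHE41, a circadian repressor, had 269 and 378 against 645 and 519 in CAKI-1 and overlapped between conditions in 769-P. Likewise, CNIH3, a glutamate receptor auxiliary protein, PLLP, a myelin protein, EPHX2, a soluble epoxide hydrolase, and PRXL2A, a redox protein, fell by 0.92, 0.99, 0.57 and 0.44. In 769-P, CNIH3, EPHX2 and PRXL2A had effects of 0.45, 0.43 and 0.52 with adjusted p of 0.052, 0.054 and 0.053 (limma), and TNFAIP6 one of -0.39 with 0.055, so calling them specific to CAKI-1 rests on the threshold. PLLP, which shared 19.9% of its exon length with ARL2BP, lost its call in 6 of 8 fits with a library left out (difference 0.62 to 1.44), and POMK in 4 (-1.44 to -0.92).

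Gene lists were described by how many members rose or fell beside the same over all genes, whose median effects were -0.01 in 769-P and 0.0 in CAKI-1 and whose median difference was 0.01. Most list members had a mean of 100 or more, where the shares called higher and lower were 34.5% and 29.2% in 769-P and 19.1% and 15.6% in CAKI-1. For the difference, the shares called further up and further down in 769-P were 17.4% and 15.9%. Genes of the amino acid response fell with BCAA in 769-P, and fewer of them fell, by less, in CAKI-1. Of 16 tested members of the list of ATF4 and its stress regulators, 14 fell and 1 rose in 769-P, and 9 fell and 1 rose in CAKI-1. The difference was called for 14 as further down in 769-P and for 1 as further up, and the median effects were -1.97 and -0.34. NUPR1, a chromatin-binding stress protein, had 178 and 199 with BCAA and 1620 and 1608 without in 769-P. It had 1027 and 1184 against 1454 and 1419 in CAKI-1, so the groups were apart in both lines and the gap was wider in 769-P, with a difference of -2.71 (SE 0.13). DDIT4, an inhibitor of mTORC1, had 903 and 902 against 7951 and 8065 in 769-P. In CAKI-1 it had 1455 and 2179 against 2130 and 2415, where the groups overlapped, and 41.2% of its exon length is shared with an antisense gene, DDIT4-AS1. ATF3, a stress-induced transcription factor, had a difference of -2.51. VLDLR, a lipoprotein receptor that ATF4 induces, was opposite, with effects of -1.05 and 0.29.

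Some of these genes carry, within 250 bases before the annotated start, the letters of a C/EBP-ATF composite element, through which ATF4 acts. The windows below were picked from genes that carry these letters and were further down in 769-P. MTHFD1L and IARS1, with differences of -0.77 and -0.6, also carry them and are not shown. The windows come from RefSeq promoters (GRCh38.p14) on the gene's own strand, 5′ to 3′. Capitals mark the match to TGATGNAA or to its reverse complement TTNCATCA. CHAC1 and ATF3 are named by the rule for named genes, and ASNS (asparagine synthetase), GOT1 (an aspartate transaminase) and AARS1 (alanyl-tRNA synthetase) were chosen after their values were seen. They lie, in the order of the lines, at chr15:40953242-40953289, chr1:212565196-212565243, chr7:97872449-97872496, chr10:99430795-99430842 and chr16:70289666-70289713.
CHAC1: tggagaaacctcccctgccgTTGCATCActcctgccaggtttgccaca
ATF3: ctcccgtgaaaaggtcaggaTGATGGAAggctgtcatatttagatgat
ASNS: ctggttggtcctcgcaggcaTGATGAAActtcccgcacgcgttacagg
GOT1: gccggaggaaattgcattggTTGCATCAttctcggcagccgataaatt
AARS1: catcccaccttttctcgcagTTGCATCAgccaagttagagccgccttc
The 5 genes had differences of -3.48, -2.51, -1.86, -0.77 and -0.87. Of promoters (300 bases, from 250 before to 50 after the start) of genes with a mean of 100 or more in both lines, 1.54% held these letters on either strand, of those of genes that fell in 769-P only 3.1%, and of those of cytosolic aminoacyl-tRNA synthetases 37.5% (6 of 16). For amino acid transporters the share was 21.4% (3 of 14), and for the list of ATF4 and its stress regulators 14.3% (2 of 14). A match describes letters and does not show binding.

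Of 17 enzymes of amino acid and folate synthesis, 13 fell and 3 rose in 769-P, with a median effect of -1.02, while 3 fell and 5 rose in CAKI-1, with a median of 0.0. PHGDH, the first enzyme of serine synthesis, had 642 and 483 with BCAA against 3935 and 4246 without in 769-P, and lay between 5835 and 6270 in every CAKI-1 library. PSAT1, the next enzyme of that pathway, had effects of -1.92 and 0.06, and PCK2, the mitochondrial PEP carboxykinase, effects of -3.23 and -0.47. PSPH, which completes serine synthesis, and GPT2, the mitochondrial alanine transaminase, were opposite. GPT2 had 1985 and 1868 against 5958 and 6067 in 769-P and 3269 and 3533 against 2832 and 2705 in CAKI-1. The difference was called as further down in 769-P for 12 of the 17 enzymes and as further up for 1.

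Most amino acid transporters fell in 769-P, while most were not called in CAKI-1. Of 16, 11 fell and none rose in 769-P, and 2 fell and 3 rose in CAKI-1. The medians were -0.94 and -0.01, and the difference was called as further down in 769-P for 11. SLC7A5, the light chain of the exchanger that imports leucine, lies on chr16:87830023-87869488. Its counts were 5583 and 5074 with BCAA and 36409 and 37635 without in 769-P. In CAKI-1 they were 24378 and 21522 with BCAA and 16663 and 17051 without. The libraries separated in both lines in opposite order, and the difference was -3.24 (SE 0.09, limma adjusted p = 1.5e-10). SLC1A5, a glutamine and neutral amino acid transporter, was opposite too, with 7376 and 6682 against 15982 and 16251 in 769-P and 8062 and 7738 against 6897 and 6715 in CAKI-1. It had this pattern in 6 of 8 fits with a library left out and the spread taken from the others, and shared 23.8% of its exon length with another gene. SLC7A11, the cystine importer, had effects of -2.16 and -0.09. SLC6A9, a glycine transporter, had 0 and 1 reads with BCAA and 3 and 13 without in 769-P, too few for a fold, and its call was lost in 6 of 8 fits with a library left out.

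Of 19 cytosolic aminoacyl-tRNA synthetases, which charge transfer RNA, 11 fell and 5 rose in 769-P, and 5 fell and 2 rose in CAKI-1. WARS1, for tryptophan, had 5389 and 5023 with BCAA against 20687 and 21890 without in 769-P, and 3511 and 3833 against 4744 and 4797 in CAKI-1. The fall was present in both lines and larger in 769-P, with a difference of -1.65 (SE 0.08). MARS1 and SARS1, for methionine and serine, had differences of -1.02 and -1.01, and QARS1, for glutamine, was the opposite member, with effects of 0.25 and -0.26. The list's median effects were -0.45 and -0.13, and 11 members were further down in 769-P while 2 were further up.

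**Figure D3:**
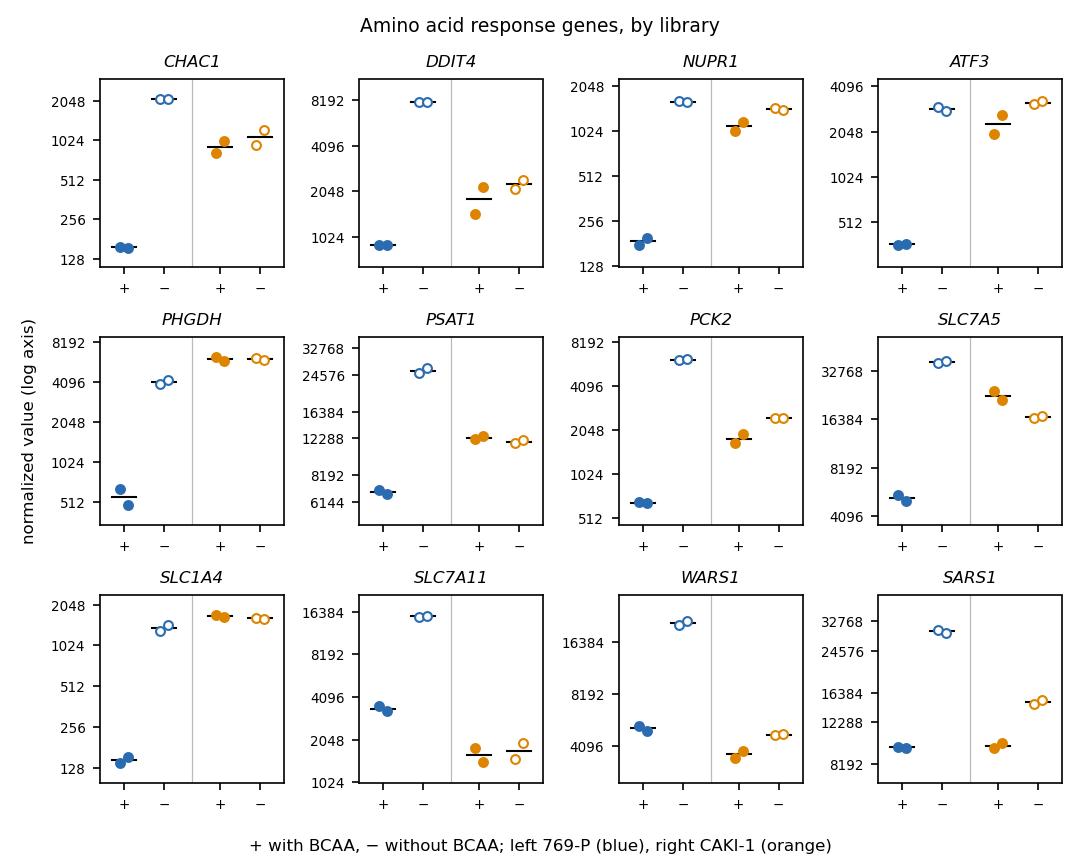
Normalised read counts (log axis) of 12 genes of the amino acid response, 1 panel per gene and 1 point per library, with the group mean as a bar, for 769-P and CAKI-1 with and without BCAA; levels are comparable within a line. The 769-P libraries with BCAA lie far below those without in each panel, while the CAKI-1 groups lie closer together. In CAKI-1, those with BCAA also lie lower in some panels, such as NUPR1 and WARS1, and higher for SLC7A5.

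The enzymes that break down BCAA differed between the lines in a modest way. Of 27 members, 14 rose and 5 fell in 769-P, and 3 rose and 2 fell in CAKI-1. The difference was called as further up in 769-P for 11 and as further down for 2, with a median of 0.31. The 2 transaminases that open the pathway were those further down. BCAT1, the cytosolic one, had 544 and 546 with BCAA against 3155 and 3362 without in 769-P. In CAKI-1 it had 17323 and 16493 against 15183 and 16147, so the libraries separated in both lines, but the effect of 0.11 in CAKI-1 was not called. BCAT2, the mitochondrial one, had effects of -0.72 and 0.17. Below them, BCKDHB and DLD, subunits of the keto acid dehydrogenase complex, rose in 769-P by 0.6 and 0.48 and were not called in CAKI-1, at -0.19 and 0.14. BCKDHA, the partner subunit, had values of at most 9.94, with 64.6% of its exon length shared with EXOSC5, and its difference was not called (limma adjusted p = 0.27). AUH, which acts in leucine breakdown, had effects of 0.18 and -0.24, neither called, and a difference of 0.42 whose call was lost in 6 of 8 fits with a library left out (0.35 to 0.48). PPARGC1A, a coactivator of mitochondrial genes placed in this list, had 2430 and 2554 against 1431 and 1480 in 769-P. In CAKI-1, where it had at most 28.3, its effect of -0.73 was not called, and the difference was 1.5. HDAC7, the deacetylase that the study is about, had effects of -0.01 and 0.04 and a difference of -0.05 (95% interval -0.25 to 0.14) that was not called.

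Genes of leucine sensing and mTORC1 showed no common direction. Of 33, 11 rose and 11 fell in 769-P and 3 rose and 3 fell in CAKI-1, shares in 769-P close to those of all genes with a mean of 100 or more. Differences were called for 4 as further up and 3 as further down in 769-P. DEPTOR, an inhibitory partner of mTOR, was opposite, with 466 and 477 against 260 and 290 in 769-P and 19.5 and 22.5 against 42.8 and 54.0 in CAKI-1, a pattern it had under 7 of 21 alternatives. CASTOR2, a paralogue of the arginine sensor CASTOR1, had 217 and 185 against 55.9 and 66.0 in 769-P and overlapping values in CAKI-1, at 27.0 to 42.8. Its difference of 1.63 lost its call in 2 of 8 fits with a library left out (1.3 to 1.95). SESN1, a Sestrin, had effects of 0.33 and -0.16.

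Most genes of cholesterol synthesis rose in 769-P, and fewer of them in CAKI-1. Of 24 genes of cholesterol synthesis and uptake, 22 rose and none fell in 769-P and 12 rose and none fell in CAKI-1, with median effects of 0.95 and 0.32, and the difference was called for 18, each as further up in 769-P. STARD4, a sterol carrier, and INSIG1, which retains the sterol sensor in the endoplasmic reticulum, had differences of 1.96 and 1.35. INSIG1 rose by 1.46 in 769-P and was not called in CAKI-1, at 0.11. Of 21 genes of fatty acid synthesis, 14 rose and 2 fell in 769-P and 7 rose and none fell in CAKI-1. ELOVL5 and ELOVL6, which lengthen fatty acids, and LPIN1, a phosphatidate phosphatase, had differences of 0.93, 0.71 and 0.69. Over the list, 5 differences were called as further up and 2 as further down.

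Most respiratory chain subunits rose in 769-P, and few of them in CAKI-1. Of 72 tested nuclear-encoded subunits, 62 rose and none fell in 769-P, while 11 rose and 2 fell in CAKI-1. The difference was called for 49, each as further up in 769-P, and 38 of the 72 were called in 769-P only. The median effects were 0.47 and 0.06. By complex, the members that rose in 769-P and in CAKI-1 were 27 and 4 of 34 in complex I, 4 and 0 of 4 in complex II, 8 and 2 of 9 in complex III, 9 and 2 of 10 in complex IV, and 14 and 3 of 15 in ATP synthase. ATP5MC3, a subunit of the membrane ring of ATP synthase, had 20841 and 22100 with BCAA against 7822 and 8105 without in 769-P. In CAKI-1 it had 6697 and 7038 against 5171 and 5101, and the difference was 1.01 (SE 0.07). NDUFB5 and NDUFB4 of complex I rose by 0.72 and 0.83 in 769-P and had effects of -0.12 and 0.01 in CAKI-1.

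**Figure D4:**
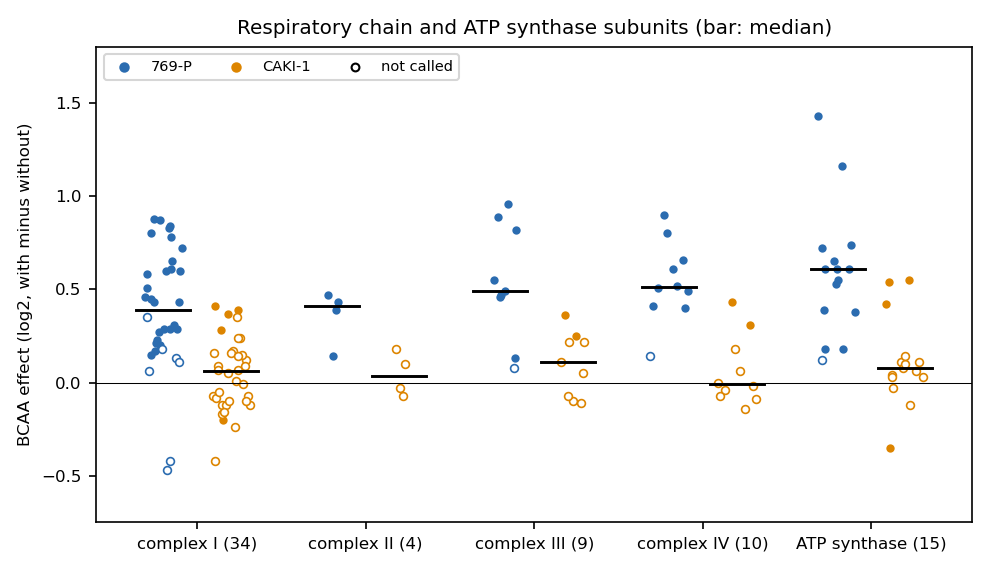
Effect of BCAA (log2, with minus without) on the 72 tested subunits of the respiratory chain and ATP synthase, 1 point per subunit, grouped by complex, in 769-P and in CAKI-1, with the median of each complex as a bar. The 769-P effects lie mostly above 0, with a median of 0.47 over all subunits, and those of CAKI-1 scatter around 0, with a median of 0.06.

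Proteasome subunits and heat shock proteins held many differences, most of them further up in 769-P. Of 30 proteasome subunits, 28 rose in 769-P and 11 in CAKI-1, none fell, and 18 were further up in 769-P. PSMB4, PSMB5 and PSMC2 had differences of 0.53, 0.62 and 0.58. Of 16 heat shock proteins, 13 rose and 2 fell in 769-P and 6 rose and 1 fell in CAKI-1, with medians of 0.58 and 0.09, and 12 were further up in 769-P against 2 further down. HSPA8, the constitutive HSP70, was opposite, with 92702 and 88671 against 70585 and 71941 in 769-P and 108522 and 101477 against 152191 and 142681 in CAKI-1. HSPE1, the mitochondrial co-chaperonin, had a difference of 0.91, with 23.9% of its exon length shared with another gene. CRYAB, a small heat shock protein, rose by 0.59 in 769-P and had an effect of -0.65 in CAKI-1 that was not called, a difference of 1.24, with 20.6% shared with HSPB2. Of 24 endoplasmic reticulum chaperones and unfolded protein response genes, 11 rose and 9 fell in 769-P and 8 rose and 2 fell in CAKI-1. CALR, the chaperone calreticulin, had effects of 1.37 and 0.2, while ERN1, the sensor IRE1, and XBP1, its target, fell in 769-P by 1.97 and 1.44 and were not called in CAKI-1, at -0.16 and 0.03.

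The cell cycle lists rose with BCAA in both lines. Of 36 genes of DNA replication, 36 rose in each line, with medians of 1.23 in 769-P and 1.13 in CAKI-1. A difference was called for 12 as further up in CAKI-1 and for 4 as further up in 769-P. CLSPN, a checkpoint adaptor at the replication fork, had 2591 and 2520 against 997 and 958 in 769-P. In CAKI-1 it had 1237 and 975 against 185 and 223, so the rise was larger there, with a difference of -1.04 (SE 0.16). CDC45, a subunit of the replicative helicase, and CDC6, which licenses origins, had differences of -0.96 and -0.66. The letters TTTNNCGC, part of the E2F motif, stood in 65.6% of the promoters of this list (21 of 32) and in 11.1% of those of all genes with a mean of 100 or more. Mitosis genes leaned the other way. Of 36, 35 rose in 769-P and 34 in CAKI-1, with medians of 1.57 and 1.2, and the difference was called for 16 as further up in 769-P and for 1 as further down. KIF20A, a kinesin of cytokinesis, PTTG1, the inhibitor of separase, and SPC24, a kinetochore protein, had differences of 0.73, 0.75 and 0.71, and SPC24 lost its call in 2 of 8 fits with a library left out (0.54 to 0.88). Cell cycle genes thus moved with BCAA in both lines beside every other change, and their part in the other results was not tested.

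Cytosolic ribosomal proteins mostly fell in both lines. Of 74, 46 fell and 4 rose in 769-P and 59 fell and 2 rose in CAKI-1, with medians of -0.19 and -0.34. The difference was called for 14 as further up and for 3 as further down in 769-P, and 8 of the 74 fell in CAKI-1 only. The share further up was close to the 17.4% of all genes with a mean of 100 or more. RPS29 had effects of 0.08 and -0.48, a difference of 0.56 (SE 0.1), and RPL39 effects of 0.23 and -0.28, with a difference whose call was lost without 769-P with BCAA replicate 2 (0.39 to 0.62 over the libraries left out). RPS15 was opposite, with effects of 0.18 and -0.27, in 5 of 8 fits with the spread taken from the other 7 libraries. RPS27 fell in both, by 1.55 and 1.08, and the difference of -0.48 lost its call in 5 of 8 fits with a library left out (-0.6 to -0.35). Ribosomal protein genes have many pseudogene copies, and reads shared with them were not resolved here. Of 38 ribosome biogenesis factors, 14 rose and 7 fell in 769-P and 14 rose and 3 fell in CAKI-1, and 10 were further down in 769-P against 3 further up. NPM1, the nucleolar protein nucleophosmin, was called as opposite, with effects of 0.12 and -0.37, but had that pattern in 3 of 8 fits with the spread taken from the other 7 libraries and under 6 of 21 alternatives, and was called in CAKI-1 only under several others. RRP12, a factor of subunit export, had effects of -0.34 and 0.15, the latter not called.

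Most hypoxia target genes fell in 769-P. Of 22, 16 fell and 1 rose in 769-P and 7 fell and 3 rose in CAKI-1, with medians of -0.67 and -0.16, and the difference was called for 14, each as further down in 769-P. VEGFA, the vascular endothelial growth factor, had 2621 and 2533 with BCAA against 24271 and 24144 without in 769-P. In CAKI-1 it had 1368 and 1878 against 2029 and 2257, a fall of 0.42, and the difference was -2.81 (SE 0.15, limma adjusted p = 4.1e-08). EPAS1, which encodes HIF-2α, had 825 and 823 against 7410 and 7807 in 769-P and 2292 and 2935 against 4050 and 4440 in CAKI-1, and a difference of -2.5. CCND1, cyclin D1, fell by 0.81 in 769-P and had an effect of 0.01 in CAKI-1. P4HA1 and P4HA2, collagen prolyl hydroxylases, were opposite, with effects of -0.51 and 0.3 and of -0.51 and 0.25, P4HA1 in 8 and P4HA2 in 5 of 8 fits with the spread taken from the other 7 libraries. Several genes of this list, such as VEGFA and DDIT4, are also known targets of ATF4.

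Glycolysis genes were mixed, with 11 up and 9 down of 24 in 769-P and 9 up and 2 down in CAKI-1, and 9 further down in 769-P against 3 further up. SLC2A1, the glucose transporter GLUT1, had 4022 and 3575 against 20773 and 20635 in 769-P and lay between 2852 and 3003 in every CAKI-1 library, a difference of -2.39 (SE 0.08). HK2, a hexokinase, had effects of -1.26 and 0.22, the latter not called. SLC16A1, a lactate transporter, and PFKFB3, which makes an activator of phosphofructokinase, were opposite, with effects of -0.39 and 0.32 and of -0.16 and 0.23. With a library left out and the spread taken from the others, SLC16A1 had this pattern in 8 of 8 fits and PFKFB3 in 2. SLC2A3, the glucose transporter GLUT3, had 0 and 4 reads with BCAA and 21 and 14 without in 769-P, and 575 to 1046 in CAKI-1, so no fold is given.

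Of 26 matrix genes, 6 were called in opposite directions. FN1, fibronectin, had 101620 and 85622 with BCAA against 67669 and 71950 without in 769-P. In CAKI-1 it had 650185 and 659678 against 830606 and 990389, so the order was inverted, with a difference of 0.89 (SE 0.12). MMP2, a gelatinase, and COL6A1, a chain of collagen VI like COL6A3, also rose in 769-P and fell in CAKI-1, with effects of 0.71 and -0.46 and of 0.26 and -0.22. PLOD2, a collagen lysyl hydroxylase, did the reverse, with effects of -0.29 and 0.25, as did COL5A1, a chain of collagen V, with 19.7 and 8.55 against 95.6 and 103 in 769-P and 18853 and 12758 against 10334 and 12119 in CAKI-1. With a library left out and the spread taken from the other 7, COL6A3, FN1 and MMP2 had the opposite pattern in 8 of 8 fits, COL6A1 in 4 and PLOD2 in 3, and COL5A1 had it under 7 of 21 alternatives. Over the list, 11 rose and 9 fell in 769-P and 10 rose and 10 fell in CAKI-1, and the medians were 0.04 and 0.0, so that the list as a whole had no common direction.

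Of 8 transcription factors of epithelial-mesenchymal transition, 3 differed. SNAI1, which encodes SNAIL1, rose in both lines, with 170 and 126 against 26.1 and 18.3 in 769-P and 429 and 360 against 202 and 166 in CAKI-1. The rise was larger in 769-P on the log2 scale, at 2.68 (SE 0.3) against 1.1 (SE 0.15), a difference of 1.59 (SE 0.33, limma adjusted p = 0.0037). SNAI2 and ZEB2 fell in 769-P by 3.0 and 1.85, with differences of -2.54 and -1.8, and ZEB2 was not called in CAKI-1, at -0.06. Of 18 epithelial junction genes, 5 rose and 7 fell in 769-P and 2 rose and 8 fell in CAKI-1. CLDN2, a claudin of leaky epithelia, rose in both lines, by 0.75 and 1.53. KRT7 fell in both, by 1.87 and 1.3, and its difference lost its call in 6 of 8 fits with a library left out (-0.72 to -0.42). KRT19, another keratin, was called as opposite on 14 and 10 reads against 1 and 2 in 769-P, and had that pattern under 2 of 20 alternatives.

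NOTCH and YAP genes fell mostly in 769-P. Of 16 genes of the NOTCH pathway, 8 fell and 2 rose in 769-P and 2 fell and 2 rose in CAKI-1, and 7 were further down in 769-P against 1 further up. NOTCH1, a receptor, and HEY1, a target, fell in 769-P by 0.73 and 1.07 and had effects of 0.02 and -0.09 in CAKI-1. HES1, a target, had effects of -0.08 and -0.53 and a difference that was not called (limma adjusted p = 0.26). NRARP, a feedback regulator, had a difference of -1.44 whose call was lost in 7 of 8 fits with a library left out (-1.85 to -1.03). Of 17 YAP and TEAD targets, 11 fell and 3 rose in 769-P and 2 fell and 3 rose in CAKI-1, with medians of -0.5 and 0.05. AJUBA, a LIM protein, had 3486 and 3176 against 8308 and 8207 in 769-P and overlapping values in CAKI-1, at 7763 to 8626. NUAK2, a kinase, and F3, tissue factor, had differences of -1.32 and -1.51, and CCN2 was the opposite member described above.

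Stress-secreted hormones and several cytokines fell in 769-P. Of 8 stress-secreted hormones, 7 fell and none rose in 769-P and 4 fell and 1 rose in CAKI-1, with medians of -1.7 and -0.44. STC2, stanniocalcin 2, had 147 and 130 against 907 and 1041 in 769-P and 30356 and 33522 against 39816 and 39549 in CAKI-1, a difference of -2.49 (SE 0.11). INHBE, an activin subunit, had 19.0 and 13.7 against 189 and 166 in 769-P and at most 14.2 in CAKI-1. TNFAIP3, an intracellular inhibitor of NF-κB and not a hormone, had a difference of -1.21. Of 19 chemokines and cytokines, 9 fell and 1 rose in 769-P and 2 fell and 4 rose in CAKI-1. IL6 had 5.31 and 4.28 against 55.9 and 103 in 769-P and 4591 and 6152 against 7844 and 7607 in CAKI-1, with a difference of -3.2 and 20.7% of its exon length shared with STEAP1B. CXCL2, a neutrophil chemokine, had a difference of -1.63, and CCL20, which attracts cells through CCR6, one of -2.96 whose call was lost in 3 of 8 fits with a library left out (-3.7 to -2.21).

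**Figure D5:**
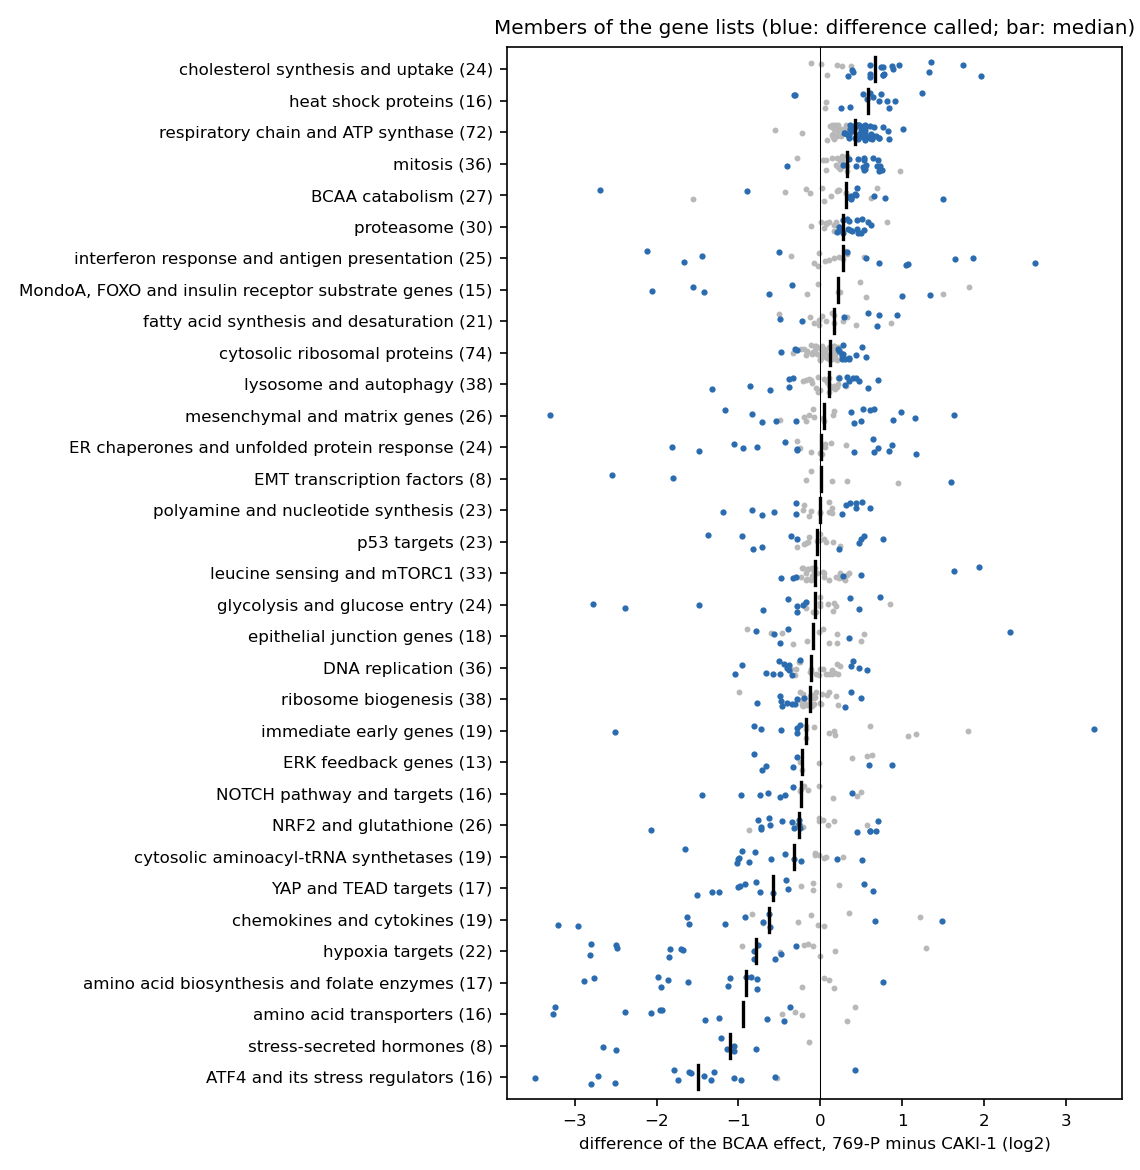
Difference of the BCAA effect (log2, 769-P minus CAKI-1) of the tested members of 33 gene lists, 1 row per list, with members as points and the median as a bar. Stress-secreted hormones and the list of ATF4 and its stress regulators lie lowest, with medians of -1.1 and -1.5, and cholesterol synthesis and heat shock proteins highest, with 0.67 and 0.58.

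Genes with a mean between 1 and 100 in a line gave the largest called differences in each direction, on few reads. AC034213.1, a noncoding transcript, had 1 and 0 reads with BCAA and 121 and 105 without in 769-P, and 4 to 10 in CAKI-1. FUT1, a fucosyltransferase, had 4 and 2 against 102 and 88 in 769-P, and 2 to 9 in CAKI-1, and LINC02334, a noncoding RNA, 3 and 1 against 32 and 32, and 0 to 7. In the other direction, MMP1, a collagenase, had 705 and 508 against 43 and 50 in 769-P, and 0 to 7 in CAKI-1. CYP2E1, a cytochrome P450, had 10 and 4 against 0 and 0 in 769-P and 0 and 2 against 5 and 4 in CAKI-1, and PPP1R1C, a phosphatase inhibitor, 7 and 15 against 2 and 1, and 0 and 1 against 5 and 4. The differences were called for all 6, but each gene had a group with a mean of 3 reads or fewer per library, which allows no fold, and a missing response in CAKI-1 was not detectable at this depth for genes with 10 reads or fewer there. CYP2E1 and PPP1R1C lost their calls in 2 and 5 of 8 fits with a library left out.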

How the data were processed

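RNA from 769-P and CAKI-1 cells with or without BCAA for 16 h was sequenced in 8 libraries, grouped by the cell line and treatment in their labels. The authors deposited 1 table of signal per cell line, which holds the read count of a gene after scaling by the library's size factor (0.777 to 1.32). The submitters' processing notes name Trim Galore, TopHat2 2.1.0, SAMtools 1.3.1, HTSeq 0.6.0, DESeq and DESeq2 and the build hg38. The annotation and the use of strand in counting are not given in the sources used here, so how reads on overlapping or antisense genes were assigned is unknown. The fewest reads of a listed gene, summed over a line's 4 libraries, were 2. Every value (100%) was a whole number of reads within 0.01 reads, so that reads could be recovered. Depth was 30979773 to 64256834 reads. Groups with a mean of 3 reads or fewer per library were taken as the floor, which covers counting error only.

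Genes with a mean of 1 or more were tested on log2(value + 1) with limma 3.58.1 in R 4.3.3 (lmFit, eBayes with trend), within each line for the effect of BCAA, and over the 8 libraries (4 group means, no replicate block) for the difference. Calls were made at a Benjamini-Hochberg adjusted p of 0.05. The added 1 makes log2 effects of genes with few reads too small. In simulated data, 200 of 19406 genes were changed, all with a mean of 100 or more in both lines. The interaction test recovered 95% of those with a log2 difference of 1 and 100% of those with 2, beside 16 false calls. Recovery of genes with lower means or smaller differences was not simulated, nor were the calls within a line. In the real data a difference was called for 21.1% of genes, many with a difference smaller than those simulated. Symbols came from a gene name table, then GENCODE 29, for 19218 of 19406 genes, and coordinates from GENCODE 29 (GRCh38). RefSeq promoters (GRCh38.p14) matched 8269 of 9936 protein-coding genes with a mean of 100 or more.

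Genes were named by a rule. It took the 6 with the largest responses of each pattern and direction. Opposite genes were ranked by the smaller of their 2 absolute effects, and genes called in 1 line only by their difference. Opposite genes with a larger difference, such as SLC7A5, could thus rank lower. It also took up to 3 members per list with the largest called difference, every opposite list member and genes named in the paper. Added to these were the 3 largest differences each way among genes with a mean under 100. For the patterns, a gene was named only if libraries with BCAA did not overlap those without in every line said to respond. Pseudogenes and genes with no symbol were skipped, 2 in all among the responses. A few genes that the rule names are not reported here. The genes, 33 lists and 4 marker lists were chosen with earlier results of these data known. Alternatives changed the pseudocount, filter, scaling, test (edgeR 4.0.16 and DESeq2 1.42.0 on recovered reads), trend, depth, threshold, replicate block, spread per line and libraries. The labels do not say whether same-numbered samples were paired. Same-numbered deviations correlated by -0.088 in 769-P and 0.061 in CAKI-1, which does not settle it with 4 libraries per line.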

Additional observations from a re-analysis of the deposited data

Results flagged for a closer look

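Genes named with a called difference are listed with that difference, except MTHFD1L and IARS1, whose differences are given with the promoter windows. The difference is the log2 effect of BCAA in 769-P minus that in CAKI-1, as tested by the interaction term of limma over the 8 libraries. The list holds 159 genes, of which 64 had a positive and 95 a negative difference. Groups of 2 libraries are too small for a test of single libraries.

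Among the named genes with opposite responses, SIGLEC15 differed by 3.46, WDR72 by 2.19, CHST2 by 1.8, FLRT3 by 1.62, COL6A3 by 1.63, ETV1 by 1.65, TNFRSF9 by -1.79, ITPR1 by -2.02, EDN2 by -3.91, RELL1 by -1.17, NHSL1 by -1.99 and CCN2 by -0.98. Among those called in 769-P only, LIMCH1 differed by 2.78, CGNL1 by 2.22, IL31RA by 2.16, KRT15 by 2.05, ZNF385D by 2.01, TFPI2 by 2, SPX by -4.09, CHAC1 by -3.48, SLC1A4 by -3.26, KIF21B by -3.11, PHGDH by -2.88 and AMZ1 by -2.8. Among those called in CAKI-1 only, POMK differed by -1.18, THBS1 by -1.17, AL390728.6 by -1.16, TNFAIP6 by -1.16, PSMC3IP by -0.97, SDC2 by -0.93, HCFC1R1 by 1.41, CNIH3 by 1.37, BHLHE41 by 1.03, PLLP by 1.03, EPHX2 by 0.99 and PRXL2A by 0.96. In the ATF4, synthesis, transporter and synthetase lists, DDIT4 differed by -2.8, NUPR1 by -2.71, ATF3 by -2.51, VLDLR by -1.34, PCK2 by -2.76, PSAT1 by -1.98, GPT2 by -1.94, PSPH by -1.13, SLC7A5 by -3.24, SLC1A5 by -1.41, SLC7A11 by -2.07, WARS1 by -1.65, MARS1 by -1.02, SARS1 by -1.01 and QARS1 by 0.51. For the other genes shown with promoter windows, ASNS differed by -1.86, GOT1 by -0.77 and AARS1 by -0.87. In BCAA catabolism, BCAT1 differed by -2.69, BCAT2 by -0.9, BCKDHB by 0.79, DLD by 0.34, AUH by 0.42 and PPARGC1A by 1.5. In leucine sensing, CASTOR2 differed by 1.63, DEPTOR by 1.94 and SESN1 by 0.49. In lipid synthesis and uptake, STARD4 differed by 1.96, INSIG1 by 1.35, ELOVL5 by 0.93, ELOVL6 by 0.71 and LPIN1 by 0.69. In replication and mitosis, CLSPN differed by -1.04, CDC45 by -0.96, CDC6 by -0.66, KIF20A by 0.73, PTTG1 by 0.75 and SPC24 by 0.71.

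In the ribosome and its assembly, RPS27 differed by -0.48, RPS29 by 0.56, RPL39 by 0.51, RPS15 by 0.44, LYAR by -0.77, NPM1 by 0.49 and RRP12 by -0.49. In respiration and the proteasome, ATP5MC3 differed by 1.01, NDUFB4 by 0.82, NDUFB5 by 0.84, PSMB4 by 0.53, PSMB5 by 0.62 and PSMC2 by 0.58. In hypoxia and glucose use, VEGFA differed by -2.81, EPAS1 by -2.5, P4HA1 by -0.81, P4HA2 by -0.76, SLC2A1 by -2.39, HK2 by -1.48, SLC16A1 by -0.7 and PFKFB3 by -0.39. In chaperones and the unfolded protein response, CRYAB differed by 1.24, HSPA8 by 0.84, HSPE1 by 0.91, ERN1 by -1.81, XBP1 by -1.48 and CALR by 1.17. In the YAP, NOTCH and EMT lists, AJUBA differed by -1.24, NUAK2 by -1.32, F3 by -1.51, NOTCH1 by -0.74, HEY1 by -0.97, NRARP by -1.44, SNAI1 by 1.59, SNAI2 by -2.54 and ZEB2 by -1.8. In matrix genes, FN1 differed by 0.89, MMP2 by 1.16, COL6A1 by 0.49, COL5A1 by -3.3 and PLOD2 by -0.54. In secreted factors, IL6 differed by -3.2, CCL20 by -2.96, CXCL2 by -1.63, INHBE by -2.65 and STC2 by -2.49. TNFAIP3, an intracellular inhibitor of NF-κB, differed by -1.21. In p53, autophagy, MondoA and NRF2 genes, GADD45A differed by -1.37, PMAIP1 by -0.96, BBC3 by -0.82, FAS by 0.53, MAP1LC3B by -1.32, ULK1 by -0.86, CTSB by 0.7, IRS2 by -2.06, ARRDC4 by -1.55, TXNIP by -1.42, AKR1C1 by -0.73, GCLM by -0.62, FTH1 by -0.76 and TKT by 0.68. In the polyamine, interferon, early gene, ERK and junction lists, ODC1 differed by -1.19, SMOX by -0.83, CAD by -0.57, SAT1 by -0.71, IFI44 by 1.86, ISG20 by -2.12, FOS by 3.34, JUN by -0.81, DUSP4 by -0.71, PHLDA1 by 0.87, CLDN2 by -0.78 and KRT7 by -0.57. CCND1, cyclin D1, differed by -0.81, and LAMP2, a lysosomal membrane protein, by 0.47.

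Of these genes, 10 had a group with a mean of 3 reads or fewer per library. Their differences were called too, but the fitted values depend on the added 1 and are neither folds nor bounds. Given with their range over the alternatives, the fitted differences among list members were SLC6A9 at -2.39 (-4.28 to -1.0), SLC2A3 at -2.77 (-3.85 to -1.4), OASL at 2.62 (1.79 to 3.45) and KRT19 at 2.32 (1.5 to 2.79). Among genes with a mean under 100 they were AC034213.1 at -5.78 (-7.28 to -4.13), FUT1 at -6.08 (-6.61 to -4.61), LINC02334 at -5.67 (-6.81 to -3.47), MMP1 at 5.25 (3.93 to 6.71), CYP2E1 at 4.49 (1.83 to 7.71) and PPP1R1C at 3.88 (1.87 to 5.77).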

How the results depend on the processing

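The counts over genes with a mean of 100 or more below are, in order, opposite with a rise in 769-P, opposite with a fall in 769-P, 769-P only up, 769-P only down, CAKI-1 only up and CAKI-1 only down, which were 121, 119, 1072, 1015, 184 and 237 as reported. Without the intensity trend they were 0, 0, 483, 468, 0 and 0, and the differences called over all genes were 813 further up and 794 further down in place of 2122 and 1966. At an adjusted p under 0.01 the differences were 1224 and 1155, and the counts in opposite directions 43 and 51 and in CAKI-1 only 84 and 97. A minimum of 2-fold was also tried, with the threshold kept at 0.05 as in the main test. The differences were then 365 and 445, and the counts 1, 0, 111, 179, 3 and 2. Quantile normalization gave 62 and 51 opposite genes, and thinned reads 48 and 54, with 148 for CAKI-1 only down. With a library left out and fits within a line, the counts ranged from 0 to 37, 0 to 53, 306 to 1493, 271 to 1354, 0 to 275 and 0 to 295. With the spread from the other 7 libraries (added after seeing the data), they ranged from 81 to 193, 91 to 158, 704 to 1016, 626 to 1018, 132 to 254 and 166 to 307. Within a line, 3 libraries leave 1 residual degree of freedom. The cause of the other changes was not tested.

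The count of differences stayed within 1.5 times under the other alternatives, at 1531 to 2146 further up and 1376 to 1967 further down with a library left out. With the replicate block it was 1824 and 1667, and of the genes named it changed the call of AUH and NRARP alone. Of the 159 genes with a called difference that the naming rule picked, 0 reversed, 49 lost the call under at least 1 alternative other than a stricter threshold and 18 with a library left out. Of 16 lists with a median difference of at least 0.25 in size, 0 changed sign, and scaling moved the median difference of all genes by at most 0.006. Depth limits genes with few reads in CAKI-1, where a missing call does not show a missing response.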

Other observations

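Lists of nutrient and stress signalling not described above held genes with differences in both directions. Of 15 genes of the MondoA, FOXO and insulin receptor substrate list, 6 fell and 5 rose in 769-P and 8 fell and 2 rose in CAKI-1. TXNIP, an inhibitor of glucose uptake, had 2583 and 3142 with BCAA against 16413 and 16943 without in 769-P, and 6023 and 9268 against 16670 and 16119 in CAKI-1. Its relative ARRDC4 also fell in both lines, while IRS2, an adaptor of insulin signalling, fell by 2.17 in 769-P and was not called in CAKI-1, at -0.1. Of 38 genes of lysosome and autophagy, 15 fell and 9 rose in 769-P and 16 fell and 1 rose in CAKI-1. MAP1LC3B, a protein of the autophagosome, had effects of -1.51 and -0.19, and ULK1, a kinase that starts autophagy, effects of -0.98 and -0.12, the latter not called. CTSB, a lysosomal hydrolase, and LAMP2, a lysosomal membrane protein, rose in 769-P, by 0.43 and 0.3, and fell in CAKI-1, by 0.27 and 0.18, a pattern each had in 6 of 8 fits with a library left out and the spread taken from the other 7. Of 23 p53 targets, 13 fell and 5 rose in 769-P and 9 fell and 1 rose in CAKI-1. GADD45A, a stress sensor, and BBC3 and PMAIP1, which encode PUMA and NOXA, fell in 769-P by 1.5, 1.22 and 1.07 on the log2 scale, with differences of -1.37, -0.82 and -0.96. FAS, a death receptor, was opposite, with effects of 0.24 and -0.29, likewise in 6 of 8.

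Of 26 genes of the NRF2 and glutathione list, 12 fell and 5 rose in 769-P and 7 fell and 4 rose in CAKI-1. FTH1, ferritin heavy chain, had effects of -1.25 and -0.49, with 62.4% of its exon length shared with BEST1. GCLM, of glutathione synthesis, and TKT, transketolase, were opposite, with effects of -0.27 and 0.36 and of 0.4 and -0.28. AKR1C1, a reductase, had a difference of -0.73 whose call was lost in 5 of 8 fits with a library left out (-0.88 to -0.59). Polyamine and nucleotide genes rose in 11 of 23 cases and fell in 5 in 769-P, and rose in 13 and fell in 4 in CAKI-1. ODC1, which opens polyamine synthesis, had 15250 and 14694 against 34475 and 33448 in 769-P and overlapping values in CAKI-1, at 9077 to 9537. SMOX and SAT1, of polyamine breakdown, had differences of -0.83 and -0.71, and CAD, of pyrimidine synthesis, was opposite, with effects of -0.32 and 0.25, in 6 of 8 fits with the spread taken from the other 7 libraries.

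Of 25 interferon response genes, 7 fell and 6 rose in 769-P and 7 fell and 1 rose in CAKI-1. IFI44 was opposite, with 1085 and 1116 against 410 and 483 in 769-P and 223 and 171 against 281 and 293 in CAKI-1, in 6 of 8 such fits. ISG20, an exonuclease, had a difference of -2.12. OASL had 18 and 13 reads against 1 and 5 in 769-P and 29 and 56 against 80 and 47 in CAKI-1, too few for a fold, and the call of its difference was lost in 6 of 8 fits with a library left out. Of 19 immediate early genes, 10 fell and 1 rose in 769-P and 6 fell and none rose in CAKI-1. JUN fell by 0.98 in 769-P and was not called in CAKI-1, at -0.17. FOS, the member that rose, had 53.1 and 28.2 against 4.97 and 9.78 in 769-P and 6.81 to 32.2 in CAKI-1, and its call was lost without 769-P with BCAA replicate 1 (2.52 to 4.16 over the libraries left out). Of 13 ERK feedback genes, 7 fell and 1 rose in 769-P and 3 fell and none rose in CAKI-1. DUSP4, a phosphatase of ERK, had a difference of -0.71 whose call was lost without 769-P without BCAA replicate 2 (-0.79 to -0.63 over the libraries left out), and PHLDA1, with 16.5% of its exon length shared with another gene, was opposite, with effects of 0.27 and -0.59, in 4 of 8 fits with the spread taken from the other 7 libraries.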
